A study of Mus musculus with 14 samples.

Results

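The genes described here are 46 listed as type I interferon response genes, a set that a cell switches on, or holds at a low standing level, under interferon alpha and beta. The list also holds the receptor subunits Ifnar1 and Ifnar2. Which interferon acted on a member was not tested. All 46 were taken from that list and matched by symbol to the RefSeq transcript targets of a mouse amplicon panel. In all, 43 of the 46 had a target, and 42 held enough reads to be tested, out of 15184 tested targets and 23930 targets on file. Ifit3, Isg15 and Ifitm3 were not matched to a target here. The target of Ifi47 (NM_001271676.1) held 0 to 5 reads per library and was left out of the tests.

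The RNA came from liver sinusoidal endothelial cells (LSECs), which form the perforated wall of the hepatic capillaries and clear material from blood, isolated by flow cytometry with a gate for low CD45 and high STAB2 and CD146. The animals of both groups were wild-type C57BL/6J females with no agent named. The aged group (10 to 11 months) and the young group (8 to 10 weeks) have 7 libraries each. Experiment 1 gave 3 aged and 3 young libraries, and experiment 2 gave 4 of each. A library is named by age, experiment and replicate number, so aged 2.4 is the fourth aged library of experiment 2. Whether each library comes from its own mouse is not in the labels, so the p-values speak only of the spread among these libraries, part of which may be technical.

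Gene reads ranged from 6710403 to 13977361 per library, and the 42 tested members held 1 to 9998 reads in single libraries. The LSEC gene list was high in every library, with summed levels of 18972 to 33596 CPM (reads per library of equal effective size, with TMM factors that even out differences in composition), so the labelled cell type was present. Aged 1.3 had the lowest LSEC sum and the highest sums of hepatocyte, B cell and T cell markers. Targets of olfactory, vomeronasal and taste receptors, sensory genes, took 0.146 to 3.18% of gene reads. In experiment 2 they reached 2.93% in young 2.2 and 2.82% in aged 2.4, and at most 0.962% in the other 6 libraries. Aged 1.1 and aged 1.2 were the most alike pair of libraries (Pearson's r = 0.984 across targets) and were counted as 2. Whether these 2 come from separate mice is not in the labels, and results with them summed are given below.

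Type I interferons bind a receptor of the subunits IFNAR1 and IFNAR2, whose kinases JAK1 and TYK2 pass the signal on by phosphorylation. STAT2 and IRF9 then enter a complex that binds the interferon-stimulated response element (ISRE) in the promoters of its target genes. The products of these genes sense foreign nucleic acid, block viral translation and replication, or, like USP18, turn the signal down. Liver sinusoidal endothelial cells meet gut-derived microbial products in portal blood, and such products can set off interferon production.

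Most tested members were lower in aged than in young LSECs, by small amounts, and 2 of them passed the test over all targets. Ifi213, a DNA-sensor family gene, fell 1.98-fold, and Ifi44, an antiviral effector gene, fell 1.93-fold. No member passed that test in the higher direction. Of the 42 tested, 38 (90.5%) had a log2 fold change below 0, against 45.6% of all 15184 tested targets. The other 4, Oas3, Ifi27l2a, Mx1 and Zbp1, had values above 0, of 1.16, 0.84, 0.57 and 0.32. The median log2 fold change was −0.25 over the members and 0.02 over all tested targets. The list was drawn up with results of these libraries known, so these values describe this list and not interferon-induced genes at large. Of 63 further interferon-induced genes tested, 57.1% were below 0, with a median of −0.06. In these bulk libraries, fewer cells of a type and less RNA per cell cannot be told apart.

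The comparison used edgeR's quasi-likelihood F test with the experiment as a term, and a call required a p under 0.05 after Benjamini-Hochberg adjustment over all tested targets. Calls in the lower direction took 2 of 42 members and 16 of all targets (0.105%). Calls in the higher direction took 0 members and 18 of all targets (0.119%), and neither DESeq2 nor limma-voom called a member higher. At an unadjusted p under 0.05, 17 members were lower, against 2.98% of all targets, and 1 member, Oas3, was higher, against 4.41%. Levels of the young and aged libraries did not overlap, with all 7 aged libraries lower, for 4 members (Ifi213, Ifi44, Irgm1 and Samd9l) and for 24 of all targets (0.158%). DESeq2 called 78 of all 15184 targets lower, and 9 of these were members. They were Ifi213, Ifi44, Irgm1, Samd9l, Oas1a, Ifit1, Mx2, Oasl2 and Ifi203. Leaving out single libraries left 0 to 2 calls, and the 0 arose without aged 2.2 and without young 2.4. The log2 fold change of 21 of the 42 members, neither called member among them, moved by over 1.5 times when some 1 library was left out.

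**Figure D1:**
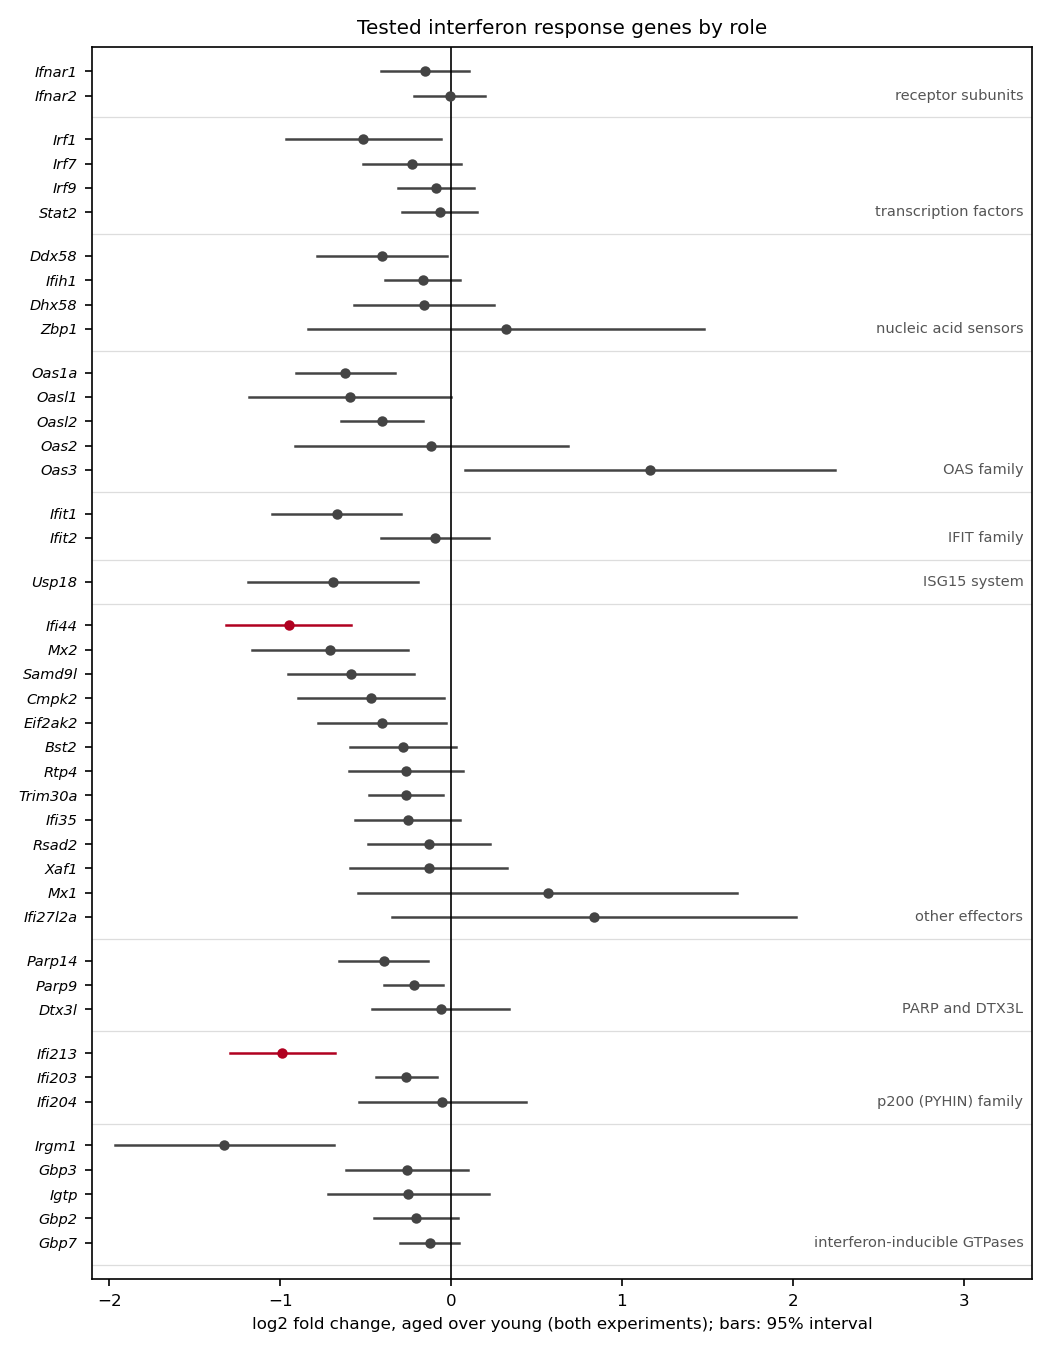
Log2 fold change of aged over young libraries on the x axis (both experiments, 7 libraries per age) for each of the 42 tested members on the y axis, grouped by role, with bars for the 95% interval. Red marks Ifi213 and Ifi44, which passed the test, and 38 of the 42 points lie left of 0.

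The element that the interferon complex binds can be read in the promoters of several members, and stretches are shown for the 2 called members and for 4 further members with an ISRE. The sequences are from RefSeq promoters of GRCm38.p6, which run from 250 bases before to 50 bases after a gene's start. The ISRE was searched as GAAANNGAAA on both strands, and matches to it stand in capitals below. Overlapping matches are merged, and each stretch ends before the gene's start.
Ifi213 (chr1:173599316-173599365, minus strand): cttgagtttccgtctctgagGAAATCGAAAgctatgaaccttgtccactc
Ifi203 (chr1:173942498-173942547, minus strand): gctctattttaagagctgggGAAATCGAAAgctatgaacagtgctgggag
Oas1a (chr5:120907526-120907565, minus strand): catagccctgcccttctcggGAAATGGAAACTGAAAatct
Irgm1 (chr11:48871421-48871470, minus strand): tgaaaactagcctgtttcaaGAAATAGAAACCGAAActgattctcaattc
Ifit1 (chr19:34640765-34640833, plus strand): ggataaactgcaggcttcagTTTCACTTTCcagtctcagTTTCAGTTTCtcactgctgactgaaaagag
Ifi44 (chr3:151749911-151749970, minus strand): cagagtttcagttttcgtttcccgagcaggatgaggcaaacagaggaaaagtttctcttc
Ifi213 and Ifi203, members of 1 gene family on chromosome 1, share a run of 20 bases around the element, ggaaatcgaaagctatgaac. Oas1a and Irgm1 each hold 2 overlapping matches, and Ifit1 holds 2 separate matches on the opposite strand. Ifi44 has no match to these letters in its window, which says only that the letters are not there. RefSeq windows were found for 35 of the 46 members, and 20 of the 35 (57.1%) held the ISRE in at least 1 window, against 1079 of 27025 genes (3.99%). The related gamma-activated site, searched as TTCNNNGAA on both strands, was in 11 of the 35 (31.4%), against 9.55% of genes. A match is a description of the letters and not a measured binding site.

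Both subunits of the receptor were expressed, and neither passed the test. Ifnar1 (NM_010508.2) stood at 116, 109 and 113 CPM in the young and 96.8, 96.1 and 87.97 CPM in the aged libraries of experiment 1, and at 123, 87.8, 150.4 and 175 CPM in the young and 129, 123, 134 and 126 CPM in the aged libraries of experiment 2. Its aged libraries lay below the young ones in experiment 1 and within their range in experiment 2 (log2 fold change −0.15, SE 0.121, adjusted p = 0.99997, 95% interval −0.41 to 0.11). Ifnar2 (NM_001110498.1) stood at 81.7, 101 and 106 CPM in the young and 92.6, 107 and 78.6 CPM in the aged libraries of experiment 1, and at 92.3, 96.6, 107 and 79.5 CPM in the young and 83.4, 106, 89.7 and 102 CPM in the aged libraries of experiment 2. Here the ages overlapped in both experiments (log2 fold change −0.01, SE 0.0975, adjusted p = 0.99997, 95% interval −0.22 to 0.20). The sign of Ifnar2 turned without TMM scaling, to 0.031, and with a term for leukocyte markers, to 0.040.

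None of the 4 transcription factors that carry or amplify the signal passed the test. Irf1, a factor induced by both interferon types that binds a related element, was the one with an unadjusted p under 0.05. Irf1 (NM_001159393.1) stood at 781, 449 and 505 CPM in the young and 396, 410.0 and 389.9 CPM in the aged libraries of experiment 1, and at 496, 447, 1144 and 734 CPM in the young and 577, 403, 638 and 383 CPM in the aged libraries of experiment 2. The young libraries were widely spread, with young 2.3 the highest of all 14, and the ages overlapped in experiment 2 (log2 fold change −0.51, SE 0.211, adjusted p = 0.628). Irf7, the factor that amplifies interferon production, averaged 69.9 ± 7.93 CPM in young and 60.7 ± 14.6 CPM in aged libraries (SD, n = 7 each). Stat2 and Irf9, which encode parts of the ISRE-binding complex, had log2 fold changes of −0.07 and −0.09. Stat2 was the one member whose aged libraries all lay above the young ones in experiment 1, and it was lower in experiment 2 (log2 fold change 0.16 and −0.23).

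Of the 4 nucleic acid sensors none passed the test. Ddx58, which encodes the RNA sensor RIG-I, averaged 37.9 ± 3.56 CPM in young and 28.97 ± 8.48 CPM in aged libraries (log2 fold change −0.40, SE 0.176, adjusted p = 0.65). Its difference was −0.73 in experiment 1 and −0.16 in experiment 2 on the log2 scale. The RNA sensors Ifih1 (MDA5) and Dhx58 (LGP2) had log2 fold changes of −0.16 and −0.16. Zbp1, a sensor of Z-form nucleic acid that triggers cell death, was low, at 0.538 to 11.6 CPM, with aged 1.3 the highest library and aged 2.4 the lowest (log2 fold change 0.32, SE 0.539, adjusted p = 0.99997).

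The OAS enzymes sense double-stranded RNA and make short oligoadenylates that activate the nuclease RNase L, and the OASL proteins are their relatives. Oas1a (NM_145211.2), whose promoter carries the overlapping ISRE matches shown above, stood at 27.8, 30.99 and 30.98 CPM in the young and 23.8, 18.5 and 20.2 CPM in the aged libraries of experiment 1, and at 39.3, 32.6, 33.2 and 39.3 CPM in the young and 28.5, 21.4, 22.4 and 17.1 CPM in the aged libraries of experiment 2. The aged libraries lay below the young ones within each experiment, and across experiments aged 2.1 overlapped young 1.1 (log2 fold change −0.62, SE 0.135, adjusted p = 0.127). An exact permutation of the age labels within experiments gave p = 0.00143 for Oas1a, the smallest it allows. Ages that lie apart in the same direction within both experiments always give this value, so it restates that separation and adds no evidence. It is also not adjusted for the number of targets. The same holds for each member below with this permutation p. Limma-voom called Oas1a (adjusted p = 0.0462), as did edgeR with a term for receptor reads (adjusted p = 0.0203). Oasl2 (NM_011854.2) stood at 184, 237 and 260.0 CPM in the young and 187, 202 and 154 CPM in the aged libraries of experiment 1, and at 248, 248, 273 and 324 CPM in the young and 175, 171, 235 and 212 CPM in the aged libraries of experiment 2. Its ages overlapped in experiment 1 through young 1.1 and did not in experiment 2 (log2 fold change −0.40, SE 0.111, adjusted p = 0.363). Oasl1 and Oas2 had log2 fold changes of −0.59 and −0.11.

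Oas3, the largest enzyme of the family, had a positive value at low levels. Oas3 (NM_145226.2) stood at 2.26, 1.605 and 1.900 CPM in the young and 3.398, 1.85 and 10.95 CPM in the aged libraries of experiment 1, and at 2.800, 4.11, 3.103 and 0.635 CPM in the young and 4.31, 9.02, 5.501 and 1.29 CPM in the aged libraries of experiment 2. Aged 1.3 and aged 2.2 were its highest libraries, and the ages overlapped in both experiments (log2 fold change 1.16, SE 0.504, adjusted p = 0.645). These are also the 2 libraries with the highest mean of leukocyte markers. With that mean as a term in the fit, the log2 fold change of Oas3 was 0.10, and without aged 1.3 it was 0.75. Because Oas1a and Oas1g are near-identical genes, reads could be split between them, and how shared reads were treated is not given in the sources used here. The same limit holds for the IFIT, p200 and GBP families below.

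Ifit1, an RNA-cap sensor that blocks translation of foreign RNA, was lower in aged libraries in both experiments without passing the test. Ifit1 (NM_008331.3) stood at 42.9, 53.7 and 68.7 CPM in the young and 35.7, 38.2 and 40.7 CPM in the aged libraries of experiment 1, and at 50.4, 54.1, 101 and 70.1 CPM in the young and 33.98, 30.7, 51.9 and 44.03 CPM in the aged libraries of experiment 2. In experiment 1 the ages did not overlap, and in experiment 2 aged 2.3 overlapped the lowest young library (log2 fold change −0.67, SE 0.175, adjusted p = 0.298). Its family member Ifit2 averaged 27.9 ± 4.08 CPM in young and 26.2 ± 4.29 CPM in aged libraries, a log2 fold change of −0.09 with a 95% interval of −0.41 to 0.22.

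Usp18 removes the ubiquitin-like ISG15 from proteins and blocks the receptor, and is known as the main brake on the response. Usp18 (NM_011909.2) stood at 17.02, 21.2 and 23.96 CPM in the young and 14.2, 16.8 and 19.7 CPM in the aged libraries of experiment 1, and at 19.96, 15.6, 25.1 and 35.4 CPM in the young and 13.4, 10.6, 15.8 and 8.61 CPM in the aged libraries of experiment 2. Most aged libraries were low, with 8.61 CPM in aged 2.4 as the lowest. The ages overlapped in both experiments, through aged 1.3 and young 1.1 and through aged 2.3 and young 2.2 (log2 fold change −0.69, SE 0.231, adjusted p = 0.508). Its difference was −0.30 in experiment 1 (SE 0.332) and −0.99 in experiment 2 (SE 0.291).

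Among 13 tested antiviral effectors Ifi44 was called lower and none was called higher. Ifi44 (NM_133871.2), an antiviral gene thought to bind GTP, stood at 158, 190.1 and 159 CPM in the young and 95.1, 90.1 and 40.6 CPM in the aged libraries of experiment 1, and at 105, 159, 122 and 126 CPM in the young and 69.7, 73.00, 82.8 and 70.3 CPM in the aged libraries of experiment 2. Every aged library lay below every young library, and aged 1.3 was the lowest of all 14. The mean was 145 ± 29.1 CPM in young and 74.5 ± 17.9 CPM in aged libraries (SD, n = 7 each), and edgeR gave a log2 fold change of −0.95 (SE 0.169, 95% interval −1.32 to −0.59, adjusted p = 0.0397). The exact permutation p of Ifi44 was 0.00143, the smallest possible, which follows from this separation of the libraries. Its call held in 2 of 14 fits that each left out 1 library, with adjusted p-values of 0.00655 to 0.101 and log2 fold changes of −1.01 to −0.82.

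The leukocyte term took the adjusted p of Ifi44 to 0.24 at a log2 fold change of −0.77, leaving out both young 2.2 and aged 2.4 took it to 0.0659 at −0.96, and summing the alike libraries aged 1.1 and aged 1.2 took it to 0.0818 at −0.99. A term for replicate number also ended its call. Without aged 1.3, the library with the most leukocyte marker signal, Ifi44 was still called.

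Samd9l, a translation inhibitor that limits poxviruses, showed separate ages at a low level. Samd9l (NM_010156.3) stood at 8.199, 8.36 and 9.17 CPM in the young and 5.44, 6.05 and 5.44 CPM in the aged libraries of experiment 1, and at 9.55, 8.07, 8.79 and 8.99 CPM in the young and 5.07, 6.66, 7.47 and 4.52 CPM in the aged libraries of experiment 2. The highest aged library, aged 2.3, was below the lowest young library, young 2.2 (log2 fold change −0.59, SE 0.171, adjusted p = 0.414). Its exact permutation p of 0.00143 follows from this separation. The MX proteins are dynamin-like GTPases that block viral replication, and both Mx genes are known to be defective in C57BL/6 mice, so their targets report transcripts of defective alleles. Mx2 (NR_003508.1) stood at 22.1, 17.1 and 16.3 CPM in the young and 14.3, 17.2 and 12.1 CPM in the aged libraries of experiment 1, and at 21.2, 16.4, 22.4 and 32.9 CPM in the young and 10.7, 9.43, 15.95 and 11.2 CPM in the aged libraries of experiment 2. Young 2.4 was its highest library, and the ages were apart in experiment 2 and overlapped in experiment 1 through aged 1.2 (log2 fold change −0.71, SE 0.212, adjusted p = 0.433).

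Trim30a, which dampens inflammatory signalling, was the one further effector given by library. Trim30a (NM_009099.2) stood at 202, 249.7 and 236 CPM in the young and 176, 197 and 149 CPM in the aged libraries of experiment 1, and at 266, 242, 266 and 233 CPM in the young and 234, 214, 267 and 183 CPM in the aged libraries of experiment 2. Its aged libraries were all lower in experiment 1, and aged 2.3 was above every young library of experiment 2 (log2 fold change −0.26, SE 0.1, adjusted p = 0.586). Cmpk2, a mitochondrial nucleotide kinase, and Eif2ak2, the double-stranded RNA kinase PKR that shuts down translation, had log2 fold changes of −0.47 and −0.40 (unadjusted p = 0.0337 and 0.0369). Bst2, the membrane tether that holds budding virus, was among the more abundant members, at 592 ± 89.8 CPM in young and 488 ± 93.1 CPM in aged libraries (log2 fold change −0.28). Bst2 also stands on the list of plasmacytoid dendritic cell markers. Rtp4, a receptor chaperone, Ifi35, Rsad2, which makes a chain-terminating nucleotide, and the pro-apoptotic Xaf1 had log2 fold changes of −0.27, −0.25, −0.13 and −0.13.

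Ifi27l2a and Mx1 had log2 fold changes of 0.84 and 0.57 at low levels, with aged means of 4.52 ± 4.07 and 1.21 ± 0.904 CPM (SD, n = 7). Aged 1.3 was the highest library for Ifi27l2a, at 11.96 CPM, and aged 2.2 and aged 1.3 for Mx1, at 2.36 and 2.34 CPM. The value of Ifi27l2a was 0.16 without aged 1.3, and that of Mx1 was 0.25 without either aged 2.2 or aged 1.3. With the leukocyte term both signs turned, to −0.39 and −0.60, as did that of Zbp1, to −0.84. None of the 3 was called in any fit, and they, with Oas3, are the 4 tested members with a positive value.

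Parp9 and Parp14 are ADP-ribosyl transferases, and Dtx3l is the ubiquitin ligase that works as a complex with Parp9. Parp14 (NM_001039530.3) stood at 102, 89.3 and 102 CPM in the young and 67.6, 79.96 and 75.1 CPM in the aged libraries of experiment 1, and at 178, 104, 138 and 136 CPM in the young and 112, 77.8, 111 and 124 CPM in the aged libraries of experiment 2. Ages were apart in experiment 1 and overlapped in experiment 2, where every library but aged 2.2 held more than any of the same age in experiment 1 (log2 fold change −0.39, SE 0.121, adjusted p = 0.444). Parp9 (NM_030253.3) stood at 113, 131 and 133 CPM in the young and 108, 113 and 127 CPM in the aged libraries of experiment 1, and at 158, 123, 160.3 and 157 CPM in the young and 116, 117, 131 and 124 CPM in the aged libraries of experiment 2. Compared with the young mean of the same experiment, 6 of 7 aged libraries were lower (log2 fold change −0.22, SE 0.0805, adjusted p = 0.58). Dtx3l, which shares its promoter region with Parp9, had a log2 fold change of −0.06 (95% interval −0.46 to 0.34).

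The p200 proteins carry a pyrin domain or DNA-binding HIN domains and act around DNA sensing and transcription. Ifi213 (NM_001177350.1) stood at 51.1, 56.5 and 74.3 CPM in the young and 36.9, 38.6 and 38.1 CPM in the aged libraries of experiment 1, and at 106, 61.3, 70.3 and 78.4 CPM in the young and 35.7, 32.2, 36.8 and 30.9 CPM in the aged libraries of experiment 2. All 7 aged libraries held 30.9 to 38.6 CPM and all 7 young libraries 51.1 CPM or more, with young 2.1 the highest. The means were 71.1 ± 18.1 CPM in young and 35.6 ± 2.94 CPM in aged libraries (SD, n = 7 each). EdgeR gave a log2 fold change of −0.99 (SE 0.143, 95% interval −1.29 to −0.68, adjusted p = 0.0129) for Ifi213. The exact permutation p of Ifi213 was 0.00143, the smallest possible, which follows from the separate ages. Its call held in 12 of 14 fits with 1 library left out, over which the adjusted p was 0.0124 to 0.0699. It also held in 11 of 12 other settings, among them the leukocyte term (adjusted p = 0.0487). A term for replicate number ended the call (adjusted p = 0.0881).

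Ifi203 (NM_001302649.1), which shares the promoter run of Ifi213 printed above, stood at 388, 460.3 and 442 CPM in the young and 353, 325 and 325 CPM in the aged libraries of experiment 1, and at 501, 505, 469 and 448 CPM in the young and 454, 346, 439 and 451 CPM in the aged libraries of experiment 2. The ages were apart in experiment 1 and overlapped in experiment 2, where aged 2.2 was the lowest library (log2 fold change −0.26, SE 0.0834, adjusted p = 0.457). Ifi204, the third member of the family on the list, averaged 43.6 ± 9.61 CPM in young and 42.96 ± 15.96 CPM in aged libraries, with a log2 fold change of −0.05 (95% interval −0.54 to 0.44). Within this family the differences thus ran from −0.99 to −0.05 on the log2 scale.

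The interferon-inducible GTPases mark and break the vacuoles of intracellular microbes, and Irgm1 regulates the other members of its class and autophagy. Irgm1 (NM_008326.1) stood at 151, 64.3 and 58.00 CPM in the young and 35.5, 35.7 and 25.3 CPM in the aged libraries of experiment 1, and at 44.8, 43.3, 109 and 148 CPM in the young and 42.2, 40.3, 33.3 and 34.98 CPM in the aged libraries of experiment 2. Aged libraries were uniformly low at 25.3 to 42.2 CPM, while the young ones spread from 43.3 to 151.4 CPM, with young 1.1, young 2.4 and young 2.3 the highest. The log2 fold change, −1.33, was the furthest below 0 among the 42 tested members, and it missed the threshold (SE 0.298, adjusted p = 0.148). Its exact permutation p of 0.00143 follows from the separate ages. Gbp2, Gbp3, Gbp7 and Igtp had log2 fold changes of −0.20, −0.26, −0.13 and −0.25, none with an unadjusted p under 0.05. Single libraries moved these values, to −0.13 for Gbp2 without young 2.3, to −0.14 for Gbp3 without young 2.4, to −0.20 for Gbp7 without young 2.2, and for Igtp to −0.14 without young 2.3 and −0.41 without aged 1.3. The Gbp proteins are larger GTPases that also coat bacteria and vacuoles.

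**Figure D2:**
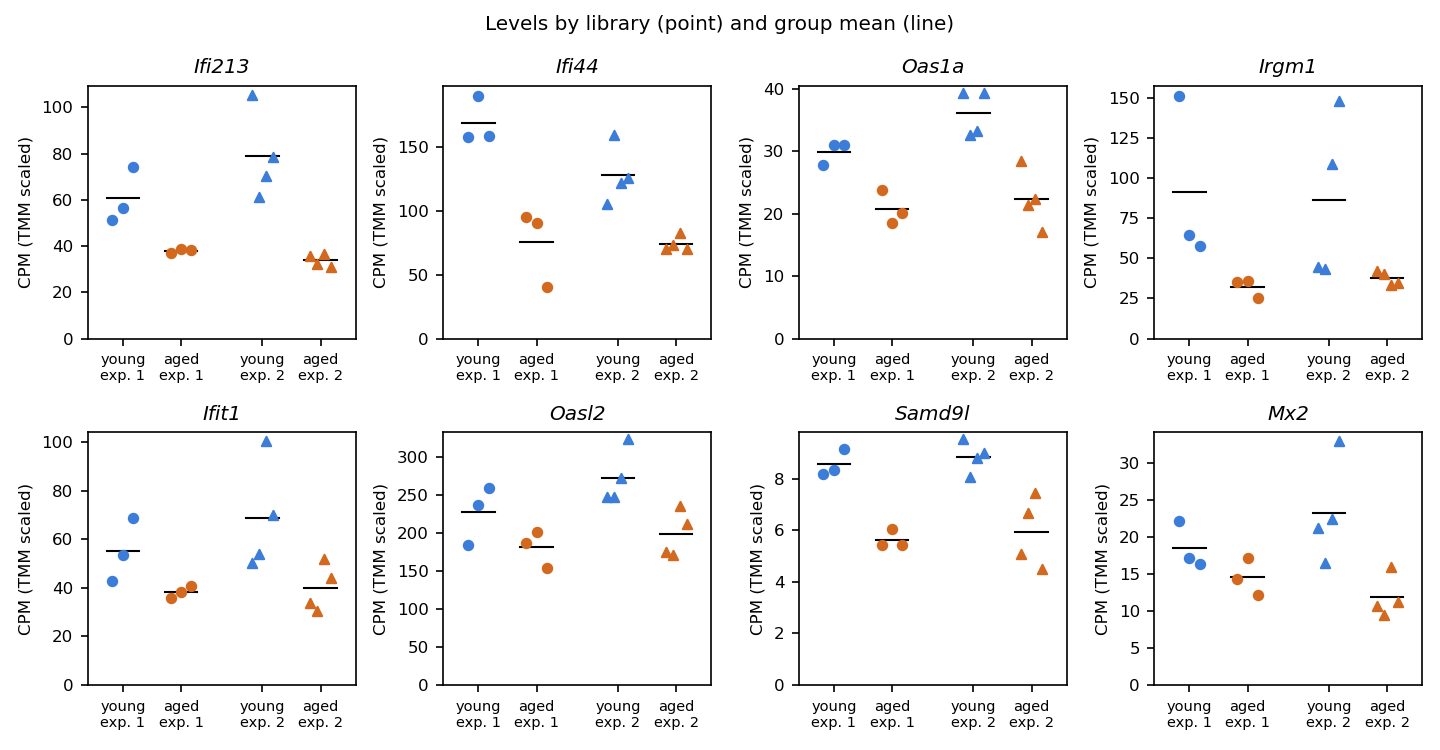
Levels in CPM (y axis, from 0) of the 8 members with the smallest p-values, by age and experiment (x axis), with 1 point per library and a line at the mean of each group of 3 or 4. Aged libraries lie below all young ones for Ifi213, Ifi44, Irgm1 and Samd9l, and the young libraries of Irgm1 spread from 43.3 to 151.4 CPM.

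The experiments were also compared one by one, with 1 model of 4 means that shares its estimate of the spread. In experiment 1 edgeR called 0 members (smallest adjusted p = 0.391) and 0 targets (0%), with 8 members and 6.64% of all targets at an unadjusted p under 0.05. There DESeq2 called 2 members, Ifi203 and Ifi44, and 91 targets, and limma-voom 0 members and 1 target. In experiment 2 edgeR called 1 member, Ifi213 (adjusted p = 0.0474), and 3 targets (0.0198%), with 15 members and 3.42% of targets at an unadjusted p under 0.05. The call of Ifi213 in experiment 2 was lost when that experiment was fitted alone and in 11 of 14 fits with 1 library left out.

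The aged libraries lay below all young ones of the same experiment for 15 members in experiment 1, against 9.05% of all targets, and for 8 members in experiment 2, against 0.599%. These 8 were Ifi213, Ifi44, Oas1a, Irgm1, Oasl2, Samd9l, Mx2 and Irf9. The members' median log2 fold change was −0.19 in experiment 1, where that of all targets was 0.11, and −0.29 in experiment 2, where that of all targets was 0.00. In both experiments 27 members were lower, 4 were higher in both, and 11 changed sign. Of all 15184 tested targets, 3130 were lower in both, 4775 were higher in both, and 7277 changed sign.

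The difference between the experiments' effects was called for 0 members and 0 targets (0%) by edgeR, and for 0 by DESeq2 and by limma-voom. At an unadjusted p under 0.05 it took 3 members, Irf9, Irf7 and Gbp3, and 371 targets. These 3 had log2 fold changes of 0.18, 0.10 and 0.14 in experiment 1 and −0.29, −0.47 and −0.56 in experiment 2. Their unadjusted p-values were 0.019, 0.0285 and 0.0312 (edgeR).

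**Figure D3:**
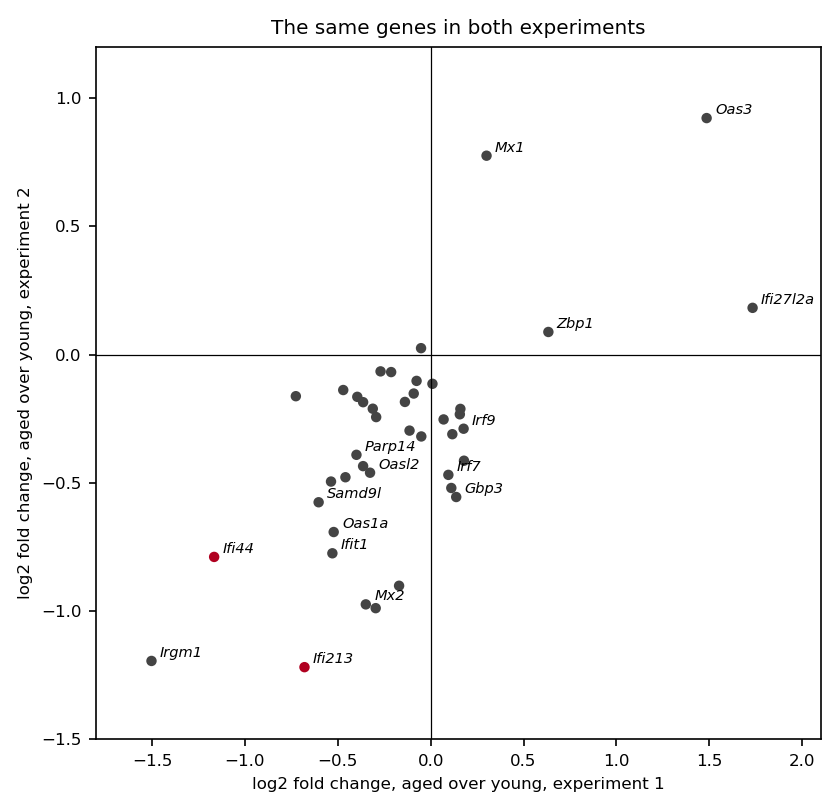
Log2 fold change of aged over young in experiment 1 (x axis) and experiment 2 (y axis) for the 42 tested members, with lines at 0 and Ifi213 and Ifi44 in red. Below and left of both lines lie 27 members, and above and right of them 4, which are Oas3, Mx1, Ifi27l2a and Zbp1. Of all 15184 tested targets, which are not drawn, 3130 were lower in both experiments and 4775 higher in both.

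As a summary per library, the mean log2 CPM of the 42 tested members (prior count 2) was taken as a score. Young libraries scored 5.30, 5.38 and 5.53 in experiment 1 and 5.51, 5.44, 5.66 and 5.67 in experiment 2. Aged libraries scored 5.19, 5.20 and 5.27 in experiment 1 and 5.30, 5.26, 5.36 and 4.89 in experiment 2. Within each experiment every aged library scored below every young one, and across experiments aged 2.3 passed young 1.1. The mean was 5.50 ± 0.137 in young and 5.21 ± 0.153 in aged libraries (SD, n = 7 each). The difference was −0.18 in experiment 1, −0.37 in experiment 2 and −0.29 over both, against an SD within groups of 0.143. Without aged 2.4, the lowest library, it was −0.24. No p is given, because the list was drawn up with results of these libraries known.

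Markers of other cells differed between the libraries as well. The 29 tested leukocyte markers had a mean log2 CPM of 0.02 to 2.82 in young and 0.21 to 5.13 in aged libraries. All 9 tested Kupffer cell and macrophage markers had positive log2 fold changes (median 1.70), with summed levels of 38.8 to 125.6 CPM in young and 36.9 to 304.6 CPM in aged libraries. All 6 tested B and plasma cell markers were positive too (median 3.25, sums of 1.80 to 67.0 CPM in young and 4.74 to 363.9 CPM in aged libraries). So were all 5 tested monocyte and neutrophil markers (median 1.93, sums of 8.92 to 228.8 and 10.8 to 1519 CPM). For T and NK cells 7 of 9 were positive (median 1.70, sums of 2.33 to 192.8 and 5.97 to 460.9 CPM), but the median was 3.63 in experiment 1 and −0.01 in experiment 2, and 5 of the 9 had opposite signs in the experiments. EdgeR called none of these markers, and at an unadjusted p under 0.05 it had 8 of the Kupffer cell, 5 of the B cell, 3 of the monocyte and 1 of the T cell list, all higher. DESeq2 called 3 Kupffer cell markers higher, Cd163, Folr2 and Vsig4, and limma-voom called none. All 6 tested hepatocyte markers (median 0.87) and all 7 stellate cell markers (median 0.46) were positive as well, with sums of 336 to 1660 and 188 to 476 CPM in young and of 445 to 4777 and 179.6 to 824 CPM in aged libraries. The hepatocyte median was 2.58 in experiment 1, where aged 1.3 held the sum of 4777 CPM, and −0.11 in experiment 2, with opposite signs for 4 of the 6 markers. The stellate cell median was 0.07 in experiment 1 and 1.22 in experiment 2, with opposite signs for 3 of the 7.

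Plasmacytoid dendritic cells, the main makers of interferon alpha, had their defining markers Siglech, Ccr9 and Klk1 too low to be tested, at 18.6, 4.26 and 18.1 CPM in aged 1.3 and at most 0.755, 0.574 and 0.786 CPM in the other 13 libraries. Without Bst2 the list summed to 122 to 180 CPM in young and 124 to 208 CPM in aged libraries, most of it from Tcf4, at 65.2 to 178.8 CPM in single libraries. The 4 tested genes of that list, Bst2 among them, split into 2 below 0 and 2 above (median log2 fold change 0.27). The highest value was that of Ly6d, which averaged 8.99 ± 5.02 CPM in young and 27.4 ± 20.1 CPM in aged libraries. Of its aged libraries, 6 of 7 lay above the young mean of their experiment (log2 fold change 1.60, SE 0.578, edgeR adjusted p = 0.58). With the leukocyte mean as a term in the fit, 38 of 42 members had a log2 fold change below 0 and their median was −0.25, while calls went from 2 members to 1, Ifi213, and from 34 targets to 6. Without aged 1.3, which had the highest leukocyte mean, the median was also −0.25 and both Ifi213 and Ifi44 were called. With the log2 of the share of receptor reads as a term the median was −0.26 and 3 members were called, Ifi213, Ifi44 and Oas1a. Of the 12 LSEC markers 10 were below 0 (median −0.11), and edgeR, DESeq2 and limma-voom each called none. At an unadjusted p under 0.05, 2 were lower and 1 higher. Mcam, which encodes the gate marker CD146, had a log2 fold change of −0.53 (SE 0.169, edgeR adjusted p = 0.457), with all 7 aged libraries below the young mean of their experiment. Lyve1, a hyaluronan receptor, had −0.65 (SE 0.265, edgeR adjusted p = 0.616), and the Fc receptor gene Fcgr2b had 0.60 (SE 0.2005, edgeR adjusted p = 0.511). Stab2, also a gate marker, averaged 2081 ± 124 CPM in young and 1997 ± 179 CPM in aged libraries. The part of these differences in the members' values was not tested.

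**Figure D4:**
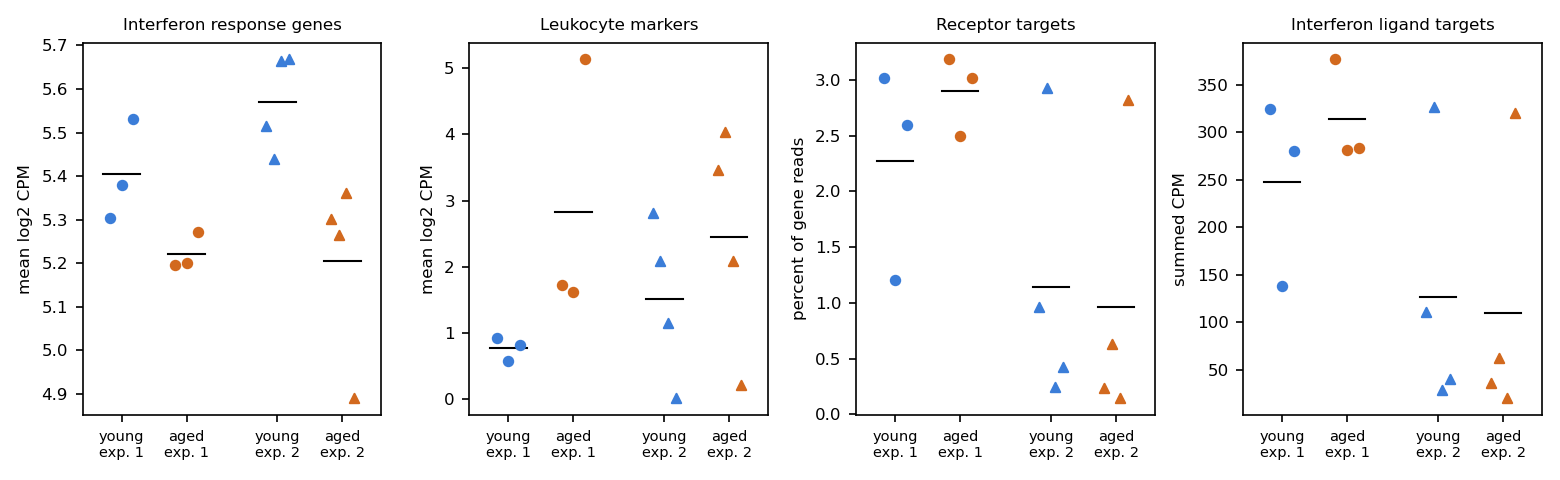
By age and experiment (x axis), 1 point per library with a line at the group mean: the mean log2 CPM of the 42 interferon response genes, the mean log2 CPM of 29 leukocyte markers, the percentage of gene reads on receptor targets, and the summed CPM of 12 interferon ligand targets. The interferon score is lower in every aged library than in the young ones of its experiment, and ligand sums are high in the libraries with high receptor shares.

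Other genes of the pathway were taken from lists. Of 22 tested genes for interferon signalling and induction, 12 were below 0 and 10 above (median −0.03), and edgeR, DESeq2 and limma-voom each called 0. At an unadjusted p under 0.05, 2 were lower and 1 higher. Tmem173, the adaptor STING of DNA sensing, averaged 216 ± 34.4 CPM in young and 172 ± 60.1 CPM in aged libraries (log2 fold change −0.38, adjusted p = 0.586). Adar, the RNA-editing enzyme that keeps self RNA from being sensed, had −0.42 (adjusted p = 0.632). Ptpn6, a phosphatase of blood cells that inhibits JAK signalling, had 2.33 (adjusted p = 0.635), and Irf5 had 1.82 (adjusted p = 0.683).

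The 12 tested interferon ligand targets gave no call by any of the 3 tools and none at an unadjusted p under 0.05. Their summed level ranged from 20.3 CPM in aged 2.3, which had the lowest receptor share (0.146%), to 376.6 CPM in aged 1.1, which had the highest (3.18%). Sums were 28.3 to 326.6 CPM in young and 20.3 to 376.6 CPM in aged libraries. The part of the receptor-type reads in these ligand levels was not tested. Receptors for interferon gamma and lambda gave 0 calls among 3 tested genes, with log2 fold changes of −0.01 for Ifngr1, −0.09 for Ifngr2 and 0.06 for Il10rb.

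Of 63 further interferon-induced genes tested, 36 were below 0 and 27 above (median −0.06), and edgeR and limma-voom called 0. Their log2 fold changes ran from −1.33 to 1.91. At an unadjusted p under 0.05, 13 were lower and 4 higher, against 2.98% and 4.41% of all tested targets. DESeq2 called 4 lower, against 78 of all 15184 targets, and these 4 were Mndal, Lgals9, Gbp9 and Cxcl10. It called 0 of the 63 higher. Mndal, a further p200 gene, averaged 503 ± 43.9 CPM in young and 399 ± 27.2 CPM in aged libraries without overlap (log2 fold change −0.33, SE 0.0705, adjusted p = 0.116). It was the 1 tested gene of this list with all aged libraries below all young ones, against 0.158% of all targets. Lgals9, a galactose-binding lectin, had a log2 fold change of −0.38, and the GTPase Gbp9 of −0.30. Cxcl10, a chemokine that draws T cells, averaged 564 ± 375 CPM in young and 233 ± 95.97 CPM in aged libraries, with a wide spread and no call by edgeR (log2 fold change −1.33, SE 0.406, adjusted p = 0.441).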

How the data were processed

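The deposited values are raw read counts per RefSeq transcript target, 1 file per library, made by the authors from an Ion AmpliSeq mouse transcriptome panel, which amplifies 1 short stretch per gene. The submitters' processing notes name HTSeq 0.6.0 and DESeq2 1.18.1. Which aligner, genome build and strand setting were used is not given in the sources used here. The 5 bookkeeping entries, 1.24 to 3.04% of reads, were left out. Of 23930 targets 22562 were matched to gene symbols through RefSeq (GRCm38.p6) and GENCODE tables.

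The deposited counts went into edgeR 4.0.16 (R 4.3.3): filterByExpr by age and experiment (15184 targets), TMM, and the quasi-likelihood F test with experiment as a term, or on 4 means for each experiment and their difference. P-values were adjusted by Benjamini-Hochberg over all tested targets at 0.05. SE is the log2 fold change over the square root of F. CPM divide counts by library sizes corrected by TMM. Exact two-sided permutations exchanged age labels within experiments (1400 relabellings, smallest p 0.00143). Ages apart in the same direction within both experiments must give the smallest p. Alternatives were DESeq2 1.42.0, limma-voom (limma 3.58.1), other scalings, filters and terms, and left-out libraries. The steps were tested on simulated counts.

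The members, gene lists and naming rule were chosen with earlier results of these data known. Every member is named. Library values are given for called members, the 12 further members with the smallest p, both receptor subunits and, chosen after their values were seen, Oas3. From other lists up to 4 genes with the smallest p are named.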

Additional observations from a re-analysis of the deposited data

Results flagged for a closer look

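In 6 of 86 groups of 7 libraries 1 library stood apart from the other 6 by Dixon's criterion, which chance alone would do in about 1 of 20 groups. Aged 2.4 was the lowest aged library for Stat2 (45.4 CPM, next 59.2 CPM), for Dtx3l (9.26 CPM, next 17.2 CPM) and for the mean log2 CPM of the 42 members (4.89, next 5.19). Aged 2.4 is also 1 of the 2 libraries of experiment 2 with a high share of receptor reads, and the part of those reads in these values was not tested. Young 2.4 was the highest young library for Mx2 (32.9 CPM, next 22.4 CPM). The lowest young library was young 2.1 for Bst2 (408 CPM, next 574 CPM) and young 1.1 for Rtp4 (169.8 CPM, next 286 CPM).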

How the results depend on the processing

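The members' median log2 fold change kept its sign in every fit run, at −0.29 to −0.21 over other settings and −0.31 to −0.22 with 1 library left out. The score difference kept its sign wherever it was computed, at −0.32 to −0.25 and −0.37 to −0.24. It was computed for other scalings, another prior count, left-out libraries and summed libraries, and not with a leukocyte, receptor or replicate term. Calls depended far more on the processing. Over both experiments members called went from 2 to 9 with DESeq2, to 1 with the leukocyte term, to 1 without young 2.2 and aged 2.4, to 1 with aged 1.1 and aged 1.2 summed, and to 0 to 2 with 1 library left out. Calls over all targets went from 34 to 143 with DESeq2, 58 with the receptor term, 19 without the experiment term, 11 with aged 1.1 and 1.2 summed, 6 with the leukocyte term and 4 to 29 with 1 library left out. In experiment 1 DESeq2 called 91 targets and 2 members, the receptor term 3 targets, limma-voom 1 target and the fit without young 2.2 and aged 2.4 2 targets, against 0. In experiment 2 calls over all targets went from 3 to 50 with DESeq2, 18 with the receptor term, 5 without TMM and with limma-voom, 0 when fitted alone, and 1 with the leukocyte term, with aged 1.1 and 1.2 summed, without the low-count filter and with that filter set by age alone (chosen after seeing the data), and to 1 to 4 with 1 library left out. There members called went from 1 to 3 with DESeq2, 2 with the receptor term, 0 to 1 with 1 library left out, and 0 with the leukocyte term, with aged 1.1 and 1.2 summed, when fitted alone, without the filter and with the filter by age alone. Of the member values under all settings, 1043 kept sign and call, 9 gained a call, 19 lost one and 20 changed sign. The sign changed with the leukocyte term for Ifi27l2a (−0.39), Ifit2 (0.028), Ifnar2 (0.040), Mx1 (−0.60), Rsad2 (0.094) and Zbp1 (−0.84), without TMM for Ifnar2 (0.031), and without young 2.2 and aged 2.4 for Ifi204 (0.091) and Oas2 (0.038). With 1 library left out it changed for Dtx3l (−0.15 to 0.032), Ifi204 (−0.14 to 0.085), Ifnar2 (−0.091 to 0.035), Oas2 (−0.38 to 0.078) and Zbp1 (−0.055 to 0.54). The cause of these shifts was not tested.

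Whether the same replicate number pairs an aged with a young library is not in the labels. Same-numbered libraries deviated together by more than 0.1 in 4 of 7 pairs (r = −0.315 to 0.741). With 3 or 4 libraries per group this cannot decide whether they were paired. With the replicate block 2 targets and 0 members were called (adjusted p = 0.0881 for Ifi213 and 0.106 for Ifi44). No molecular identifiers are named for these amplicon reads, and counts need not equal molecules, and Mx1, Oas3, Zbp1 and Ifi27l2a rest on few reads.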
